A study of Rattus norvegicus with 8 samples.

Results

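The interleukins are small secreted proteins through which cells signal to each other, and they act through receptors on the cell surface. The genes described here are the interleukins, their receptors and receptor antagonists, the related cytokines LIF, OSM, CLCF1, CNTF and cardiotrophin-1 with their receptors, and the SOCS proteins, which hold back signalling from cytokine receptors. The rule goes by gene symbol in the annotation of the array, and 78 of 14506 measured genes met it. Each was represented by 1 probe set paired with that gene alone. The cells were neonatal rat ventricular myocytes (NRVMs), primary heart muscle cells in culture, and their RNA was read on expression arrays. The miR-222 group (4 arrays) had been transfected with a synthetic miR-222 precursor, and the control group (4 arrays) with a scrambled precursor. Both received 0.4 µM of RNA with Lipofectamine RNAiMAX and gave RNA after 48 h. The labels do not state whether the arrays of a group stem from separate cultures. The p-values therefore reflect the spread among these 8 samples alone, possibly technical, and so few arrays limit the precision.

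Several of these cytokines are known in the heart. LIF, cardiotrophin-1, IL-6 and IL-11 signal through the shared receptor chain gp130, encoded by Il6st, to JAK kinases and the transcription factor STAT3, a route to growth and survival of cardiomyocytes. IL-1 and IL-33 signal through receptors that share the accessory protein encoded by Il1rap and use the adaptor MYD88 to reach NF-kappaB. A microRNA lowers transcripts that pair with its seed, bases 2 to 8. The mature strands of miR-222 and its relative miR-221 are shown because the precursor supplies the first, and both carry the same seed, in capitals. Sequences are those of RefSeq (build GRCr8), on the plus strand of chromosome X at chrX:6022682-6022702 and chrX:6023246-6023268.
rno-miR-222-3p: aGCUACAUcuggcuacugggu
rno-miR-221-3p: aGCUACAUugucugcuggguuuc

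Cells with the miR-222 precursor had lower transcripts of the IL-1 and IL-33 receptor genes Il1r1, Il1rap and Il1rl1 than cells with the scrambled precursor. Of the receptors of LIF and IL-6 type cytokines Lifr and Il6r were higher and Il11ra1 was lower. Of the cytokines only Il33 passed the limma test. The Il33 call, at a level below the median of all probe sets, was lost in 10 of 17 alternative ways of processing. With limma, 14 of the 78 genes passed the threshold (adjusted p below 0.05), 6 higher and 8 lower with miR-222, which is 17.9% of them beside 24.7% of all genes. Of all genes 11.7% were higher and 13% were lower. The median log2 difference was -0.01 over the 78 genes and 0.01 over all 14506 genes. Il1rl1, the IL-33 receptor ST2, fell most among the genes that passed, and Socs6 rose most. The groups did not overlap in 18 of the 78 genes, beside 33.3% of all genes.

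**Figure D1:**
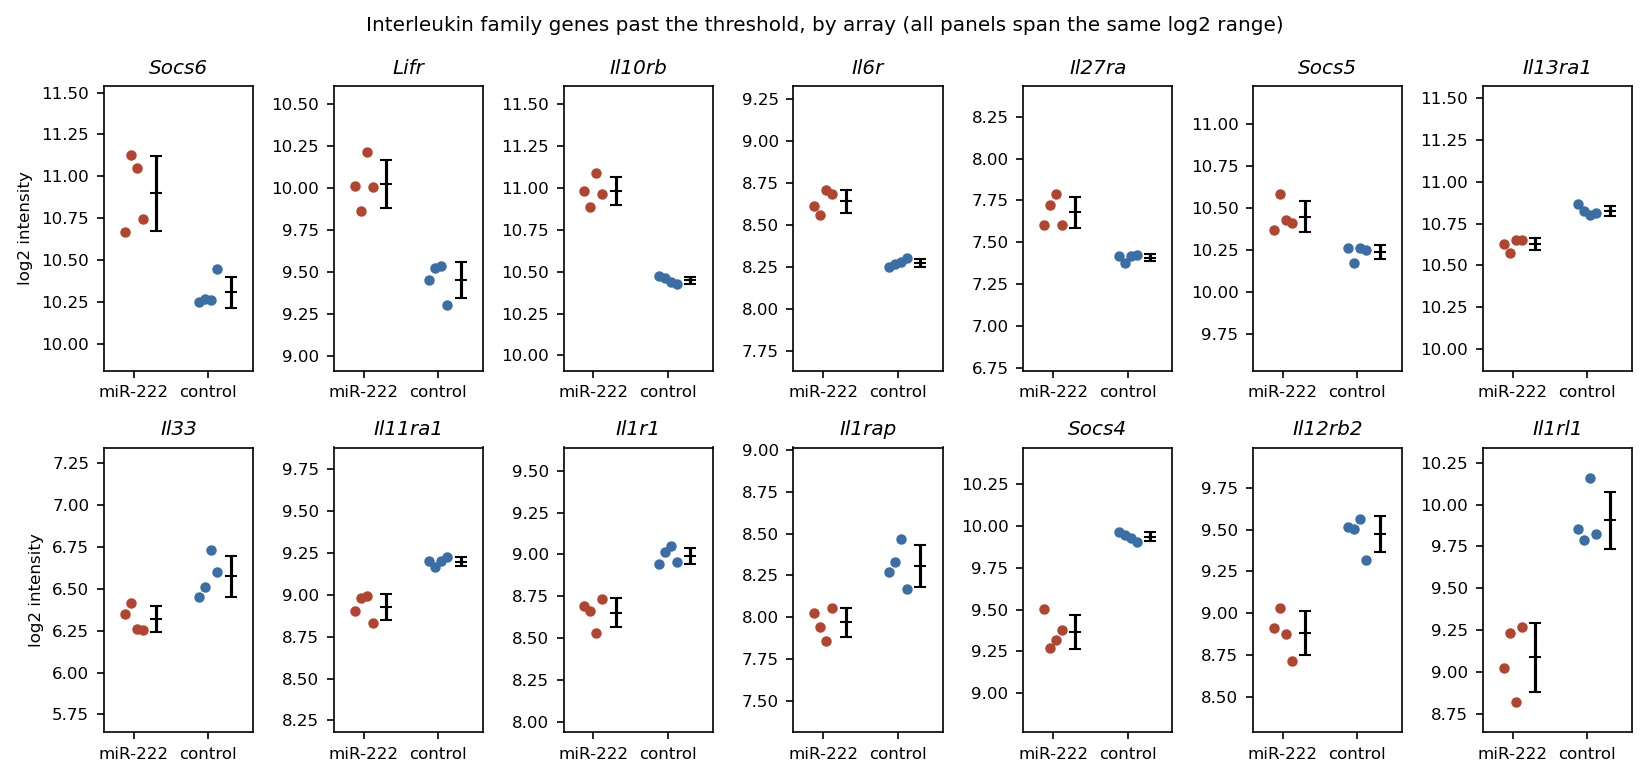
Log2 intensity (vertical axis) of the 14 genes past the threshold, 1 point per array, with miR-222 left of control and bars for the mean ± SD of 4 arrays; every panel spans the same range. The miR-222 points lie above the control points in 6 panels, from Socs6 to Socs5, and below them in 8 panels, from Il13ra1 to Il1rl1.

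The receptors of the LIF and IL-6 type cytokines went both ways. Of 5 measured members, 2 rose, 1 fell and 2 did not pass the test. Il27ra, which also pairs with gp130 and was higher, is counted below with the IL-12 family. The CNTF receptor gene Cntfr, which the rule does not cover, lay at -0.11 (SE 0.05, limma adjusted p = 0.189). All 5 lay above the median level of all probe sets, where 36.9% of all genes passed, 17.1% higher and 19.8% lower. Lifr encodes the receptor chain that binds LIF and cardiotrophin-1 and pairs with gp130. Its log2 intensity was 10.01, 9.87, 10.22 and 10.01 in the miR-222 arrays, against 9.45, 9.52, 9.53 and 9.30 in the control arrays. The groups did not overlap, and miR-222 replicate 3 was the highest array. Lifr rose by 0.57 on the log2 scale (SE 0.08, n = 4 each, limma adjusted p = 0.00251), which is 1.49-fold.

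Il6r, the chain that binds IL-6, measured 8.61, 8.56, 8.71 and 8.68 in the miR-222 arrays and 8.25, 8.27, 8.28 and 8.30 in the control arrays. Every miR-222 array was above every control array. The log2 difference was 0.37 (SE 0.05, adjusted p = 0.00108 in limma), or 1.29-fold. Il11ra1, the chain that binds IL-11, went the other way. It measured 8.90, 8.98, 8.99 and 8.83 in the miR-222 arrays, against 9.20, 9.16, 9.20 and 9.23 in the control arrays, again without overlap. Its difference was -0.27 (SE 0.05, limma adjusted p = 0.00556).

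The shared chain itself did not pass the test. Il6st measured 11.94, 11.88, 12.10 and 11.89 in the miR-222 arrays, against 11.83, 11.83, 11.79 and 11.83 in the control arrays. The groups did not overlap, but the difference of 0.13 (SE 0.06) had an adjusted p of 0.156 in limma, and miR-222 replicate 3 stood above the other 3 miR-222 arrays. Osmr, the OSM receptor chain and the neighbour of Lifr on the chromosome, measured 8.60, 8.52, 8.71 and 8.44 in the miR-222 arrays and 8.57, 8.45, 8.69 and 8.52 in the control arrays. These values overlapped throughout, with a difference of 0.01 (SE 0.07, limma adjusted p = 0.959).

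None of the 7 cytokines that signal through these receptors passed the limma test: Il6, Il11, Lif, Osm, Clcf1, Cntf and Ctf1, the gene of cardiotrophin-1, lay from -0.07 to 0.13. At an unadjusted p under 0.05, 1 of them passed, Il11, at 0.13 (SE 0.05, adjusted p = 0.153). Lif measured 8.38, 8.26, 8.14 and 8.04 in the miR-222 arrays, against 8.34, 8.23, 8.17 and 8.36 in the control arrays, with overlapping groups. Il6 measured 6.22, 6.34, 6.21 and 5.98 in the miR-222 arrays and 6.19, 6.43, 6.28 and 6.14 in the control arrays. The log2 difference of both was -0.07, with an SE of 0.08 for Lif and 0.09 for Il6.

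The IL-1 type receptors that passed were all lower with miR-222, 3 of 7 measured, and the median of the 7 was -0.18. These 3 lay above the median level of all probe sets, where 36.9% of all genes passed and 19.8% were lower. The 4 that did not pass all lay below that level, where 6.5% of all genes passed. Il1rl1 encodes ST2, which binds IL-33, a cytokine that in the heart is known to pass between fibroblasts and cardiomyocytes. It measured 9.03, 9.23, 8.82 and 9.27 in the miR-222 arrays, against 9.85, 9.79, 10.16 and 9.82 in the control arrays. All miR-222 arrays lay below all control arrays, with miR-222 replicate 3 the lowest and control replicate 3 the highest. Il1rl1 fell by 0.82 on the log2 scale (SE 0.12, limma adjusted p = 0.00244), so that its level was 1.76-fold lower with miR-222.

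Il1r1, the signalling receptor of IL-1, measured 8.69, 8.66, 8.53 and 8.73 in the miR-222 arrays and 8.94, 9.01, 9.05 and 8.96 in the control arrays. It was lower in every miR-222 array, by 0.34 on average (SE 0.05, limma adjusted p = 0.00386). Il1rap, the accessory chain that both IL-1 and IL-33 receptors need, measured 8.02, 7.94, 7.86 and 8.06 in the miR-222 arrays, against 8.27, 8.33, 8.47 and 8.17 in the control arrays. The groups did not overlap, and the difference was -0.34 (SE 0.07, limma adjusted p = 0.0149). The other 4 receptors of the group, the decoy receptor gene Il1r2, the IL-36 receptor gene Il1rl2, the IL-18 receptor gene Il18r1 and Il1rapl1, a relative known from synapses, lay from -0.18 to 0.03 and did not pass.

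Of the 11 IL-1 type ligands and antagonists measured, 1 passed (9.09%), beside 24.7% of all genes. Below the median level of all probe sets, where 10 of the 11 lay, 6.5% of all genes passed. Il33 measured 6.35, 6.42, 6.26 and 6.25 in the miR-222 arrays, against 6.45, 6.51, 6.73 and 6.60 in the control arrays. The groups lay close without overlap, at a difference of -0.25 (SE 0.07, limma adjusted p = 0.0398). That call was lost when miR-222 replicate 1, 3 or 4 or control replicate 2, 3 or 4 was left out, with adjusted p up to 0.0979. Il1b, the gene of IL-1 beta, measured 6.94, 7.02, 6.91 and 6.63 in the miR-222 arrays and 6.59, 6.85, 6.78 and 6.64 in the control arrays, with overlap (0.16, SE 0.10, limma adjusted p = 0.317).

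Il18, a cytokine that inflammasomes release, measured 6.35, 6.20, 6.49 and 6.24 in the miR-222 arrays, against 6.06, 6.11, 6.13 and 6.16 in the control arrays. Its secreted antagonist Il18bp measured 8.71, 8.82, 8.75 and 8.73 in the miR-222 arrays and 8.70, 8.48, 8.48 and 8.63 in the control arrays. In both genes the miR-222 arrays lay above the control arrays, and neither passed in limma, at differences of 0.21 (SE 0.07, adjusted p = 0.0664) and 0.18 (SE 0.06, adjusted p = 0.077). Il18 passed without miR-222 replicate 2 (adjusted p = 0.0417), and Il18bp without control replicate 1 (adjusted p = 0.0457). The remaining members, Il1a, Il1rn, Il1f10, Il36a, Il36b, Il36g and Il36rn, lay from -0.02 to 0.21 and did not pass.

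**Figure D2:**
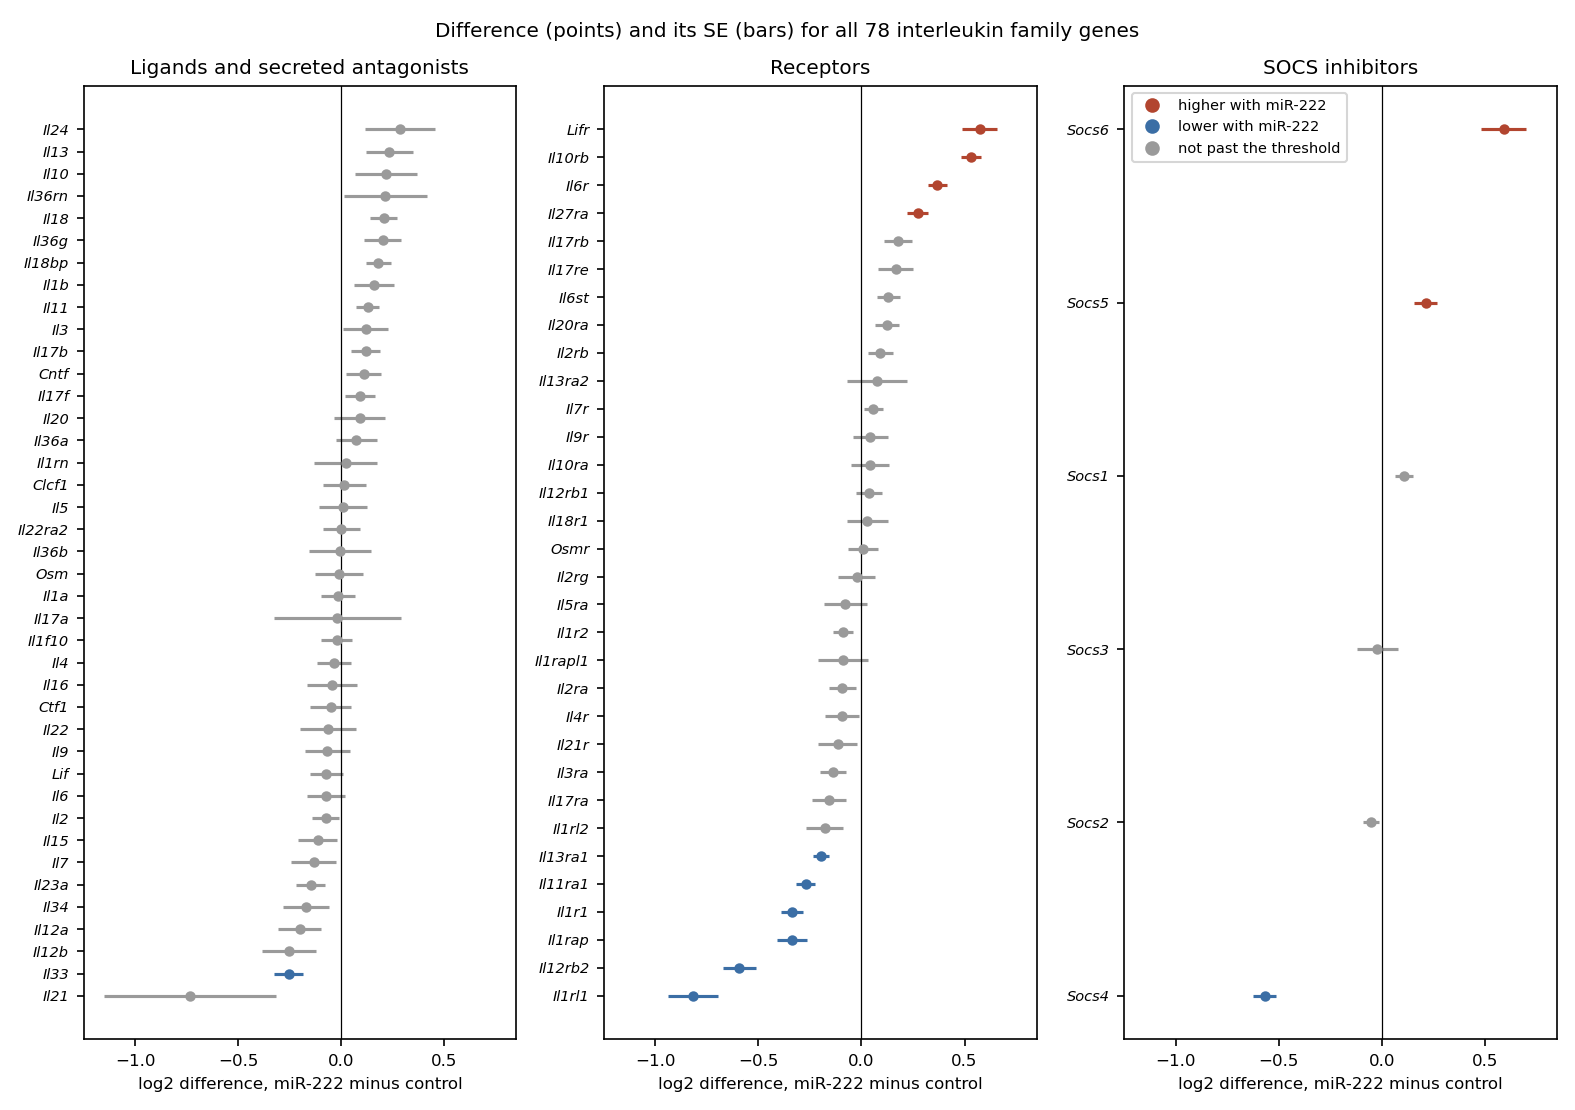
Log2 difference of miR-222 minus control (horizontal axis) with its SE from limma for all 78 genes, split into ligands with secreted antagonists, receptors, and SOCS inhibitors. Coloured points passed the threshold: 1 ligand, 10 receptors and 3 SOCS genes.

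Receptors of the IL-10, IL-12 and IL-13 families held 4 more genes that passed. They were 1 of 8 measured genes of the IL-10 and IL-20 family (12.5%) and 2 of 6 of the IL-12 family (33.3%). The last was 1 of 9 receptors grouped with Il13ra1 (11.1%). Of all genes 24.7% passed. Below the median level of all probe sets, where 7 of the 8, 5 of the 6 and 7 of the 9 genes lay, 6.5% did. Il10rb encodes a chain shared by the receptors of IL-10, IL-22 and the lambda interferons. It measured 10.98, 10.89, 11.09 and 10.96 in the miR-222 arrays, against 10.47, 10.46, 10.44 and 10.43 in the control arrays. The control arrays were nearly equal and all miR-222 arrays lay well above them, at a difference of 0.53 (SE 0.05, limma adjusted p = 3.38e-04), which is 1.44-fold and the smallest p among the 78 genes. Il27ra, which pairs with gp130 to bind IL-27, measured 7.60, 7.72, 7.79 and 7.61 in the miR-222 arrays, against 7.42, 7.38, 7.42 and 7.42 in the control arrays. It was higher in every miR-222 array, by 0.27 (SE 0.05, limma adjusted p = 0.009).

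Il12rb2, the signalling chain of the IL-12 receptor, was lower with miR-222. It measured 8.91, 9.03, 8.87 and 8.71 in the miR-222 arrays, against 9.51, 9.50, 9.56 and 9.32 in the control arrays, and the groups did not overlap. The difference was -0.59 (SE 0.08, limma adjusted p = 0.0017), or 1.51-fold lower. Il12rb1, its partner chain, lay at 0.04 (SE 0.06, adjusted p = 0.759). Il13ra1, which joins the IL-4 receptor chain to bind IL-13, measured 10.63, 10.58, 10.65 and 10.65 in the miR-222 arrays, against 10.87, 10.82, 10.80 and 10.81 in the control arrays. The difference of -0.20 (SE 0.04, limma adjusted p = 0.00904) was small but without overlap. The annotation pairs 1 further probe set with both Il13ra1 and a pseudogene of it, so the value of Il13ra1 may hold signal of a near-identical copy.

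The other interleukins and receptors did not pass. The 7 cytokines Il2, Il4, Il7, Il9, Il13, Il15 and Il21, which include growth factors of lymphocytes, ranged from -0.73 to 0.23. The lowest value was that of Il21, a cytokine of T cells, which measured 5.27, 4.90, 5.53 and 5.38 in the miR-222 arrays and 6.42, 5.43, 7.10 and 5.07 in the control arrays. Its control arrays were spread over 2 log2 units and the groups overlapped (SE 0.42, limma adjusted p = 0.285). The receptors Il2ra, Il2rb, Il2rg, Il4r, Il7r, Il9r, Il21r and Il13ra2 lay from -0.11 to 0.09, and Il3, Il5, Il3ra and Il5ra, of the eosinophil and mast cell cytokines, from -0.14 to 0.12.

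In the IL-10 and IL-20 family, Il10, Il20, Il22, Il24, Il10ra, Il20ra and the secreted IL-22 antagonist gene Il22ra2 lay from -0.06 to 0.29 and did not pass. Il12a, Il12b and Il23a, subunits of IL-12 and IL-23, lay at -0.20, -0.25 and -0.15. The IL-17 family held 6 measured genes, Il17a, Il17b, Il17f, Il17ra, Il17rb and Il17re, from -0.16 to 0.18. Il17rb, the receptor chain of IL-25, measured 6.63, 6.67, 6.91 and 6.72 in the miR-222 arrays, against 6.60, 6.46, 6.56 and 6.61 in the control arrays. Its groups did not overlap, and it did not pass (0.18, SE 0.07, limma adjusted p = 0.125). Il16, a chemoattractant of CD4+ cells, and Il34, a ligand of the CSF1 receptor, lay at -0.04 and -0.17.

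The SOCS inhibitors moved in opposite directions. Of 6 measured genes, 2 rose, 1 fell and 3 did not pass. The share past the threshold was 50%, beside 36.9% of all genes above the median level, where all 6 lay. Of all genes at such levels 17.1% were higher and 19.8% lower. Socs6, whose protein is known to bind receptor tyrosine kinases such as KIT, measured 10.67, 11.13, 11.05 and 10.75 in the miR-222 arrays, against 10.25, 10.27, 10.26 and 10.45 in the control arrays. The miR-222 arrays were spread but all lay above the control arrays, of which control replicate 4 stood apart. Socs6 rose by 0.59 on the log2 scale (SE 0.11, limma adjusted p = 0.00751), or 1.51-fold.

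Socs4, known for its action on EGF receptor signalling, measured 9.50, 9.27, 9.32 and 9.38 in the miR-222 arrays, against 9.96, 9.95, 9.93 and 9.90 in the control arrays. It was lower in every miR-222 array, by 0.57 on average (SE 0.06, limma adjusted p = 3.89e-04), which is 1.48-fold. Its closest relative in the family, Socs5, measured 10.37, 10.58, 10.43 and 10.41 in the miR-222 arrays and 10.26, 10.17, 10.26 and 10.25 in the control arrays, a rise of 0.21 (SE 0.06, limma adjusted p = 0.0312). The call of Socs5 was lost without miR-222 replicate 3 or 4, and without each control array in turn (adjusted p up to 0.0861).

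The SOCS genes best known as feedback targets of STAT proteins did not pass. Socs3, the inhibitor that gp130 signalling induces, measured 8.18, 8.58, 8.51 and 8.33 in the miR-222 arrays, against 8.45, 8.42, 8.26 and 8.56 in the control arrays. The groups overlapped fully, at a difference of -0.02 (SE 0.10, limma adjusted p = 0.914). Socs1, the inhibitor of interferon signalling, lay at 0.11 (SE 0.05, adjusted p = 0.154), and Socs2, which growth hormone induces, at -0.05 (SE 0.04, adjusted p = 0.424).

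The level of the probe sets went with the number of calls. Of 36 ligand genes 1 passed, of 4 secreted antagonists none, of 32 receptor genes 10 and of 6 SOCS genes 3. In 30 of the 36 ligands, in 18 of the 32 receptors and in none of the SOCS genes the mean level was under 7.71 log2 units, the median over all probe sets. Above that level 12 of 27 members passed (44.4%), beside 36.9% of all genes there, and below it 2 of 51 (3.92%), beside 6.5% of all genes there. Of the 12 brighter genes 5 were higher and 7 lower with miR-222, beside 17.1% and 19.8% of all genes at such levels. Of the 2 dimmer ones 1 was higher (Il27ra) and 1 lower (Il33), beside 3.64% and 2.86%. Among the brighter probe sets 9 of 14 receptors and 0 of 6 ligands passed. No detection calls were used here, so a dim probe set cannot be told from an absent transcript, and background can compress its difference. The part of the level in the contrast between ligands and receptors was not tested.

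**Figure D3:**
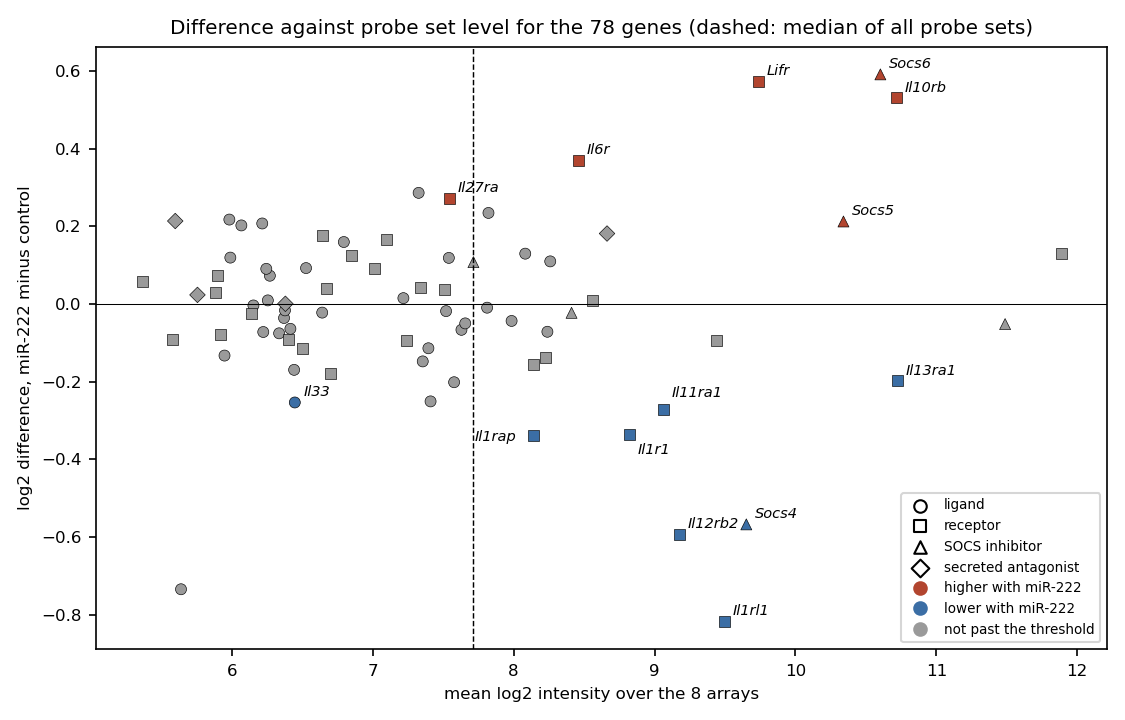
Log2 difference of miR-222 minus control (vertical axis) against the mean log2 intensity over the 8 arrays (horizontal axis) for the 78 genes, with the median of all probe sets as a dashed line. Of the 14 coloured points, which passed the threshold, 12 lie right of the line, and Il27ra and Il33 lie left of it.

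The promoters were searched for the palindrome TTCNNNGAA, the core of sites that STAT proteins bind, in windows of RefSeq from 250 bases before to 50 bases after the gene start. Of the 78 genes 58 had such a window, 61 windows in all. The motif was in 7 of the 61 (11.5%), and in 8.87% of all 33469 windows. Among the 12 genes with a window that passed the test it was found in Il10rb, which rose, and in Il12rb2, which fell. Both windows are printed because they carry the motif, in capitals. They lie at chr11:44132386-44132685 on the plus strand and at chr4:97844888-97845187 on the minus strand of GRCr8, with the first base of the motif at -6 and -177 from the start. A match of these letters is a description and not a bound site.
Il10rb: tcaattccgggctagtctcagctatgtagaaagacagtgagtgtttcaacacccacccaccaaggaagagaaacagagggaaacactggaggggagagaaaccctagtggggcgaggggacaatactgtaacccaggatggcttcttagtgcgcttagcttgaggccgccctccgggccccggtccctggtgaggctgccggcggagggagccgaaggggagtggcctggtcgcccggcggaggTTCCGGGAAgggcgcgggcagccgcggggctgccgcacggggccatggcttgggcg
Il12rb2: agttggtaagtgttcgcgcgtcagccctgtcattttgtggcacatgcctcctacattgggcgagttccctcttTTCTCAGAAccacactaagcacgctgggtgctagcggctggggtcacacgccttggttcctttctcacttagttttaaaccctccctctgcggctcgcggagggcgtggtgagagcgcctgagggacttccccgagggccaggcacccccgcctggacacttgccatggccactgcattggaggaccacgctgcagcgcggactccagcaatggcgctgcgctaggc

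In the list of JAK kinases, STATs and their inhibitors, which act downstream of these receptors, 9 of 18 measured genes rose, 1 fell and 8 did not pass, with a median of 0.13. Of all genes 11.7% were higher, and 17.1% of those above the median level, where 16 of the 18 lay. The 9 higher genes were 6 kinases and STATs and the 3 STAT inhibitor genes Pias1, Pias2 and Pias4. The inhibitor gene Pias3 was the lower one, at -0.30 (SE 0.08, limma adjusted p = 0.0276). The call of Pias3 was lost without miR-222 replicate 2 or 3 and without control replicate 1, 2 or 3. It was also lost when arrays were centred on their medians (adjusted p up to 0.0686 over these settings). The STAT inhibitor gene Pias2 rose by 0.35 (SE 0.04, limma adjusted p = 4.86e-04), Stat2, of the interferon response, by 0.36 (SE 0.05, adjusted p = 0.00222), Jak3, the kinase of the common gamma chain, by 0.38 (SE 0.06, adjusted p = 0.00441) and Stat5a by 0.27 (SE 0.05, adjusted p = 0.00527). Stat3, the main effector of gp130, was at 0.13 (SE 0.04, limma adjusted p = 0.0467), a call lost when any single array but miR-222 replicate 2 was left out, or when arrays were centred on their medians (adjusted p up to 0.217). The 9 higher genes were 5 without miR-222 replicate 1 or 4 or without each control array in turn, and 5 when each array was centred on its median.

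Genes known to respond to STAT3 showed no common direction, with 4 of 22 higher, 5 lower, 13 not past the threshold and a median of 0.02. These 9 of 22 genes are 40.9%, near the 36.9% of all genes above the median level, where 17 of the 22 lay. The secreted lectin gene Reg3b rose by 0.78 (SE 0.06, limma adjusted p = 1.06e-04) and Hif1a, the hypoxia factor, by 0.34 (SE 0.04, adjusted p = 5.64e-04). The metalloproteinase inhibitor gene Timp1 fell by 0.41 (SE 0.04, limma adjusted p = 5.02e-04) and Myc, the growth regulator, by 0.54 (SE 0.09, adjusted p = 0.00446). Without control replicate 2, 3 genes were lower.

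Among adaptors of the IL-1 and Toll receptors, 3 of 16 measured genes rose, none fell and 13 did not pass, with a median of 0.06. That is 18.8% of the list, beside 24.7% of all genes and 36.9% of those above the median level, where 12 of the 16 lay. Myd88, the adaptor that IL-1, IL-18 and IL-33 receptors share, measured 9.13, 8.97, 9.21 and 9.17 in the miR-222 arrays, against 8.48, 8.44, 8.52 and 8.23 in the control arrays. It was higher in every miR-222 array, by 0.70 (SE 0.08, limma adjusted p = 6.99e-04), while Il1r1, Il1rap and Il1rl1 were lower in the same arrays. The ubiquitin ligase gene Peli2 at 0.37 (SE 0.10, adjusted p = 0.0351) and Tab2, a partner of the kinase TAK1, at 0.12 (SE 0.04, adjusted p = 0.0459) were the others. The call of Tab2 was lost without each of the 8 arrays in turn and when arrays were centred on their medians (adjusted p up to 0.214). The 3 higher genes were 1 without miR-222 replicate 2, 3 or 4 or control replicate 1 or 3.

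**Figure D4:**
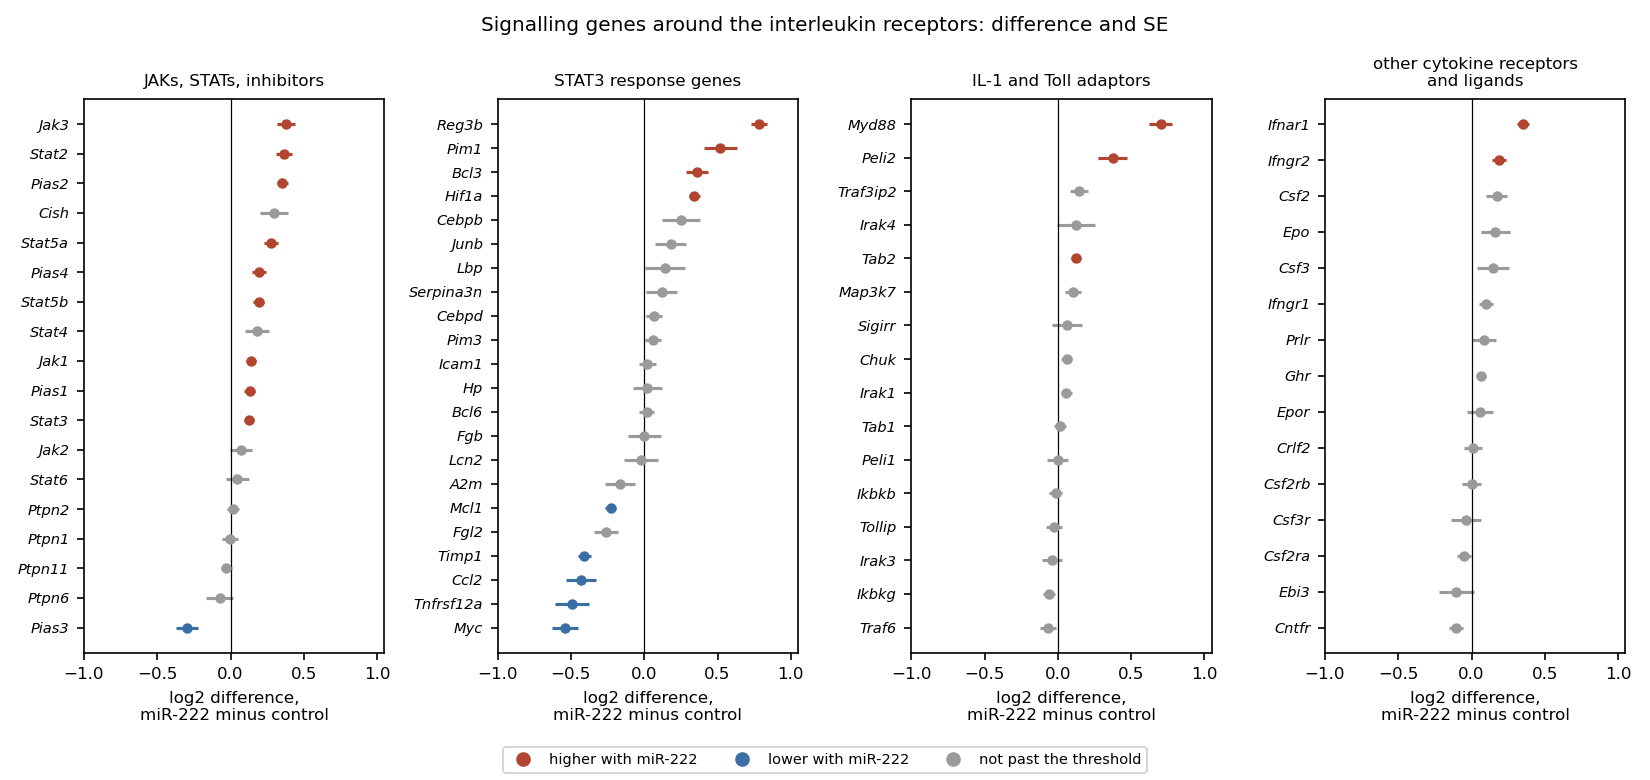
Log2 difference of miR-222 minus control (horizontal axis) with its SE from limma for the measured genes of 4 signalling lists. Coloured points passed the threshold: 10 of 18 genes in the list of JAKs, STATs and inhibitors, 9 of 22 STAT3 response genes, 3 of 16 adaptors and 2 of 15 other cytokine receptors and ligands.

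Of 15 further cytokine receptors and ligands that are not interleukins by name, 2 rose, none fell and 13 did not pass, with a median of 0.06. That is 13.3% of the list, beside 24.7% of all genes. Ifnar1, a chain of the receptor of type I interferons, rose by 0.35 (SE 0.04, limma adjusted p = 8.92e-04), and Ifngr2, a chain of the interferon gamma receptor, by 0.19 (SE 0.05, adjusted p = 0.0321). The call of Ifngr2 was lost without miR-222 replicate 2, without each control array in turn, or when arrays were centred on their medians (adjusted p up to 0.110).

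These 2 genes lie beside Il10rb in the RefSeq assembly GRCr8, in the order Ifnar2, Il10rb, Ifnar1 and Ifngr2. The 3 that were measured were all higher with miR-222, and Ifnar2 was not analysed here. The IL-1 receptor genes form another such row, in which Il1r1 and Il1rl1 were lower, whereas Il1r2, Il1rl2 and Il18r1 did not pass. In the adjacent pair of Osmr and Lifr only Lifr passed in limma, and in the pair of Osm and Lif neither did. These rows of neighbours were chosen after their values were seen.

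**Figure D5:**
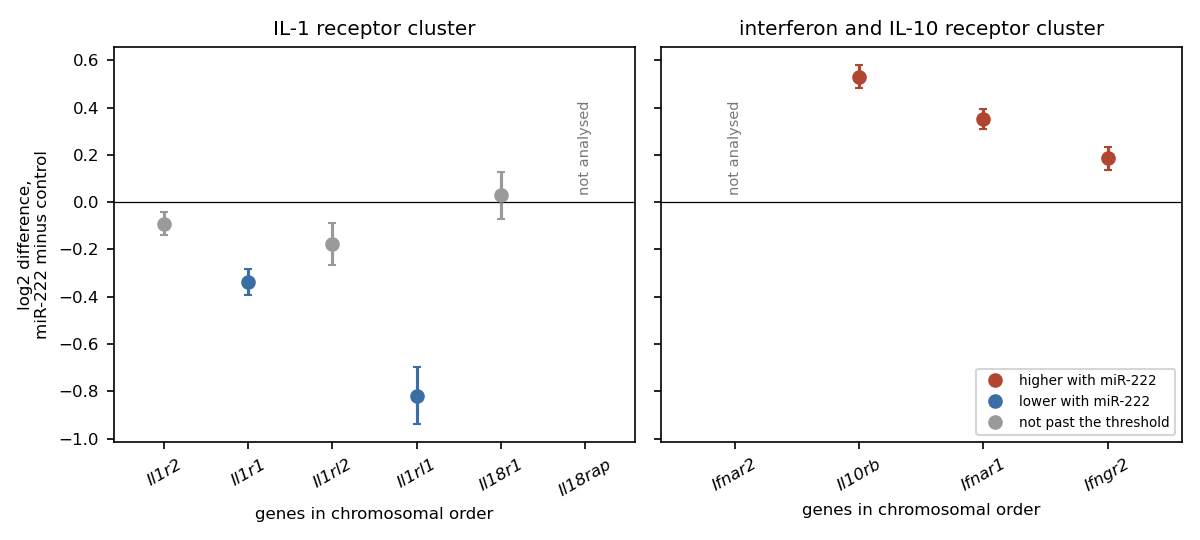
Log2 difference of miR-222 minus control with its SE (vertical axis) for genes in chromosomal order (horizontal axis) in the IL-1 receptor row, drawn without an unmeasured histone gene, and in the row of interferon and IL-10 receptors. Il1r1 at -0.34 and Il1rl1 at -0.82 were lower, and Il10rb at 0.53, Ifnar1 at 0.35 and Ifngr2 at 0.19 were higher.

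Cultures of newborn ventricles hold other cell types beside cardiomyocytes, and in whole-culture RNA fewer cells of a type and less RNA per cell cannot be told apart. All 12 cardiomyocyte markers were above the median level of probe sets, at 11.80 to 13.67 log2 units. Of these 1 was higher and 2 were lower with miR-222, and they summed to 99786 to 101798 intensity units in the miR-222 arrays, against 105437 to 107951 in the control arrays. Of 13 fibroblast markers 6 were lower with miR-222 and none was higher, and their summed intensity was 17115 to 19030 in the miR-222 arrays, against 20226 to 21613 in the control arrays. Smooth muscle markers (3 of 7 lower) summed to 14284 to 17299 in the miR-222 arrays and 19602 to 20033 in the control arrays, and endothelial markers (2 of 11 lower) to 2689 to 2860 in the miR-222 arrays and 3375 to 3655 in the control arrays. Markers of macrophages and leukocytes (2 of 15 higher) summed to 2009 to 2392 in the miR-222 arrays and 1935 to 2080 in the control arrays, and 14 of the 15 were below the median level. Markers of T, B and mast cells (2 of 12 lower, of which 1 was Kit) summed to 1216 to 1436 in the miR-222 arrays and 1553 to 1628 in the control arrays. Kdr, the VEGF receptor gene, and Kit made up most of the gap in the endothelial and the T, B and mast cell sums. Without Kdr the endothelial sums overlapped, at 2423 to 2568 in the miR-222 arrays and 2547 to 2754 in the control arrays, and 9 of the 11 markers did not pass. Without Kit the T, B and mast cell sums overlapped too, at 996 to 1204 in the miR-222 arrays and 1062 to 1160 in the control arrays. Without Thy1 the fibroblast sums stayed apart, at 16795 to 18700.5 in the miR-222 arrays and 19740 to 21057 in the control arrays. Without Tagln the smooth muscle sums did too, at 13104 to 15860 and 17122 to 17496. Each marker left out was the one with the smallest limma p of its list. Thy1, at 8.32 log2 units with miR-222 and 8.96 in the control arrays, was dim beside Vim, at 12.98 and 13.18. Leaving out Thy1 could therefore change the fibroblast sums little, and their dependence on Vim was not tested. Acta2, the brightest smooth muscle marker, did not pass (-0.08, SE 0.05, limma adjusted p = 0.370), and Myh11 was at 0.16. Vim, the brightest fibroblast marker, fell by 0.20 (SE 0.04, limma adjusted p = 0.0152), and Col1a1 did not pass (-0.04, SE 0.06, adjusted p = 0.754). Of the 13 fibroblast differences 11 were negative and 2 positive, Fbln1 at 0.16 and Tcf21 at 0.11, neither past the threshold. The share past the threshold was 25% of cardiomyocyte, 46.2% of fibroblast and 42.9% of smooth muscle markers. It was 18.2% of endothelial, 13.3% of macrophage and leukocyte and 16.7% of T, B and mast cell markers. Of all genes 24.7% passed, 11.7% higher and 13% lower. Of genes above the median level 36.9% passed, and there lay all 12 cardiomyocyte, 10 of 13 fibroblast and 6 of 7 smooth muscle markers. No marker was at 0 in any array. The part of these cell types in the lower levels of Il1rl1, Il1r1, Il1rap, Il11ra1 and Il33 was not tested.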

How the data were processed

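The deposited table gives intensities of 29170 probe sets in 8 arrays, on a linear scale as the values show; the authors' summary and normalization steps were not given in the sources used here. The series text names another Affymetrix rat array, but the identifiers pair with the annotation of Rat Gene 1.0 ST, which was used for names. That annotation names 1 gene for 15310 probe sets, several for 323 and none for 13537. The brightest probe set on average stood for its gene, and each of the 78 members had 1. All 78 gene IDs were found in RefSeq under the same symbol. The labels give no replicate numbers, so replicates are numbered in accession order. The array medians were 202 to 219, and log2 values correlated at 0.989 to 0.993 for arrays of 1 group and 0.983 to 0.989 across groups.

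Values were taken as log2 with no pseudocount and compared with limma 3.58.1 (lmFit, eBayes) in R 4.3.3, using a Benjamini-Hochberg adjustment across every probe set and a threshold of 0.05. The fit was tested on simulated data. Levels in the text are log2 intensities and differences are miR-222 minus control. Values were given for every member past the threshold and for the 5 others with the smallest p. They were also given for Il6, Il1b, Il33, Il6st, Lif, Lifr, Osmr and Socs3, and for up to 4 genes of each signalling list. After their values were seen, Il12a, Il12b, Il12rb1, Il16, Il21, Il23a, Il34, Socs2, Stat3, Cntfr, Pias3 and single marker genes were added. The members and lists were chosen with earlier results of these data known. Alternatives were added constants of 16 and 64, quantile or median scaling, leaving out the dimmest 40% of probe sets, a trended robust prior, array weights, adjustment over genes, averaged probe sets, no moderation, and leaving out each array. Plots came from Python 3.11.15 with matplotlib 3.10.9.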

Additional observations from a re-analysis of the deposited data

Results flagged for a closer look

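In 9 of 156 groups of 4 arrays (78 genes in both groups) 1 array stood apart from the other 3 by Dixon's test at its 95% critical value, which chance alone passes in about 5% of groups. Among genes that passed the comparison these were Socs6, with control replicate 4 at 10.45 against 10.25 to 10.27 in the other control arrays, and Il27ra, with control replicate 2 at 7.38 against 7.42 in each of the others. Control replicate 3 was the lowest for Il6st, at 11.79 against 11.83 in the other 3 control arrays, and for Il2rb, at 6.85. Replicate 1 of miR-222 was the lowest for Il12b, at 6.87 against 7.39 to 7.46. Replicate 2 of miR-222 was the highest for Il2ra at 7.35, for Il20 at 6.64 and for Il9r at 7.61, and the lowest for Il3 at 5.86. None of these last 5 genes passed the comparison of the groups in limma.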

How the results depend on the processing

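The count of higher members was 6 and ranged from 5 to 7 over the 18 alternatives, that of lower members was 8 and ranged from 7 to 9, and the median difference of the members stayed between -0.04 and 0.01. Of the 14 members that passed, 12 kept their call and direction in all 18 alternatives, and the exceptions were Socs5 and Il33. Besides the arrays named above, Il33 lost its call with an added constant of 64, quantile normalization, the trended robust prior or no moderation (adjusted p up to 0.0762 among these), and it was not tested among the brighter probe sets, which held 40 of the 78 members. Members that passed only in some alternatives were Il18, also with array weights, Il18bp, also among the brighter probe sets, Il13 without control replicate 4 (adjusted p = 0.0421) and Il1rl2 without miR-222 replicate 2 (adjusted p = 0.0253). No call reversed its direction. No paired analysis was possible because the labels give no replicate numbers shared between the groups. With 4 arrays a group, small differences could be missed, and 30 of the 36 ligands had probe sets below the median level, whose part in the calls was not tested.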
